A study of Mus musculus with 36 samples.

Results

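The subject of these data is what the glucocorticoid receptor (GR) mutated at both of its known dimer interfaces still does to gene expression when its ligand is added. GR, encoded by Nr3c1, is a transcription factor of the nuclear receptor family. On binding a glucocorticoid such as dexamethasone (Dex) it moves to the nucleus, where dimers bind palindromic glucocorticoid response elements (GREs) and raise genes nearby, and where the receptor also lowers inflammatory genes driven by AP-1 and NF-kB. Dimers are held together by a contact in the DNA-binding domain, which the D mutation changes. A further contact lies in the ligand-binding domain, which the L mutation (isoleucine to alanine) changes. GRD+L/D+L carries both changes on both alleles. The study reports that receptors with the L mutation also bind ligand less well, with less nuclear translocation at low Dex doses. It proposes that high Dex doses, as used here, compensate for the lower affinity in cultured fibroblasts. How much of the response reflects dimer loss and how much weaker ligand binding was not tested.

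The members are the 6 libraries of GRD+L/D+L out of 36 libraries in the series, 3 from cells given vehicle and 3 from cells given 1 µM Dex for 5 h, all in run 1. The cells were primary mouse embryonic fibroblasts (MEFs) of the FVB/NJ strain, grown in medium with fetal calf serum, and each genotype was represented by 3 cultures from different mice. The groups set beside them had the same kind of cells, dose and time, and their labels give the same strain, although the study's methods describe the GR null mice on another background than FVB/NJ: GRwt/wt of run 1, GRD/D (the DNA-binding domain change alone) and GRko/ko (no functional receptor) in run 1, and GRwt/wt and GRL/L (the ligand-binding domain change alone) in run 2, with 6 libraries each and their own vehicle controls. The 6 GRD+L/D+L libraries held 15280359 to 16761877 counts, near the low end of the series. Fibroblast markers such as collagens and Vim summed to 37494 to 42112 CPM (counts scaled to library size) in them. Macrophage markers summed to 35.2 to 45.4 CPM, whereas the highest library of the series reached 3651. Summed skeletal muscle markers (682 to 746 CPM with Dex, 776 to 807 with vehicle), neural markers (769 to 822 and 838 to 881), cartilage markers (22.3 to 24.6 and 28.8 to 31.2) and epithelial and keratinocyte markers (16.5 to 17.8 and 19.3 to 21.0) did not overlap between treatments, and their part in the results was not tested. In bulk RNA, fewer cells of a type and less RNA per cell cannot be told apart.

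One library outside the GRD+L/D+L group bears on every comparison with GRwt/wt. Among genes that Dex raised in GRD+L/D+L and that had a mean count of at least 50 there, vehicle replicate 2 of GRwt/wt run 1 had the highest of the 3 GRwt/wt vehicle values in 235 of 366 (64.2%), against 31.4% of the 11003 tested genes of that depth. It had the lowest value in 131 of 204 lowered genes (64.2%), against 32.5% of the same 11003. Cdh6, for example, stood at 65.1 CPM in it and at 28.7 and 32.6 CPM in the other vehicle libraries. The cause was not tested, and the main comparisons with GRwt/wt run 1 are given with and without this library.

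A few promoter stretches show the sequence context of genes that Dex raised in GRwt/wt of run 1 and that changed significantly less in GRD+L/D+L. They come from the RefSeq promoter windows of mouse build GRCm38.p6, are written 5′ to 3′ on the strand of the gene, and have the palindromic GRE match (GNACA and TGTNC with 3 free bases between them, where N is any base) in capitals. The Sgk1 stretch lies at chr10:21993662-21993754 on the plus strand, with the match 188 bases before the annotated start. The Mt1 stretch is chr8:94178955-94179047 on the plus strand, and the Suox stretch is chr10:128673919-128674004 on the minus strand. Gm6093 is shown at chr13:33569465-33569557 on the minus strand, and Map7d2 at chrX:159459127-159459155 on the plus strand, just past its start.
Sgk1: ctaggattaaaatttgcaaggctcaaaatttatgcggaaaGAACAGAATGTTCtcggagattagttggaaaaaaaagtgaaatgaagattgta
Mt1: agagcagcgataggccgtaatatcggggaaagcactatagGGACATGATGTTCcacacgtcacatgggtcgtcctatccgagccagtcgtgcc
Suox: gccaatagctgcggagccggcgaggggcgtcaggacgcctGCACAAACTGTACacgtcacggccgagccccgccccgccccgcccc
Gm6093: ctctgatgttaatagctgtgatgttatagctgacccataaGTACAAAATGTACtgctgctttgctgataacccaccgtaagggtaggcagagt
Map7d2: acaggacaGGACACAGTGTTCacagtctg

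A pair of genes that rose in GRD+L/D+L shows another of the motifs looked for, the AP-1 letters TGANTCA, here in capitals and from the same RefSeq windows. Scel, a protein of the epithelial cell envelope, is shown at chr14:103513265-103513340 on the plus strand, and Tmem37, a membrane protein, at chr1:120073837-120073923 on the minus strand.
Scel: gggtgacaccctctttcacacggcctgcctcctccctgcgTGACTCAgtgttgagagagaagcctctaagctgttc
Tmem37: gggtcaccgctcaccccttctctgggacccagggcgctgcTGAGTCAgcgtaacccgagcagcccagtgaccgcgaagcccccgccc

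Counted over 1 window of 300 bases for each gene, the palindrome was in 0.33% of the 11201 tested genes with a window. It was in 7 of 143 windows (4.9%) of genes that GRwt/wt of run 1 raised and in 1 of 28 (3.57%) of genes that GRD+L/D+L raised, and that 1 was Gm6093. Map7d2 was also raised in GRD+L/D+L, but its match lies in another of its windows. The AP-1 letters TGANTCA, read on both strands, were in 5 of the 28 windows (17.9%) against 5.13% of all windows and 11.2% of those raised in GRwt/wt. The genes were Fcrlb, Gm6093, Rufy4, Scel and Tmem37, of which Fcrlb, Rufy4 and Scel were thinly covered, with mean counts of 2.83, 6.67 and 43. The single GR site AGAACA, which can lie within the palindrome, also read on both strands, was in 6 of 28 (21.4%) against 12.1% of all. Over all genes raised at the adjusted p alone, 295 with a window, the shares were 10.5% for the single site, 8.14% for the AP-1 letters and 0.339% for the palindrome. The NF-kB letters (GGG and TTCC with 3 free bases between them) were in 1 of 28 (3.57%) against 6.16%. These counts describe letters in a window and were not tested.

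Dex called 60 of 15489 tested genes in GRD+L/D+L, which is 0.387%, by the criteria of an adjusted p of at most 0.05 in edgeR's quasi-likelihood test and a log2 fold change of at least 1 in either direction. Of these, 42 rose (0.271%) and 18 fell (0.116%), with median log2 fold changes of 1.5 and -1.27. Without the limit on the fold change, 620 genes passed (4%), of which 396 rose (2.56%) and 224 fell (1.45%). A model with a separate term for each genotype, run and treatment passed 774 (5%), 477 rising and 297 falling, among them all 620. The CPM of the Dex and vehicle libraries did not overlap for 58 of the 60 genes, and the same held for 23.2% of all genes tested. Coverage was thin for many calls, and 33 of the 60 had a mean count under 50 and 7 had no more than 3 counts in every library of one treatment. In GRko/ko no gene passed the adjusted p in edgeR's test (0%), where 859 genes (5.55%) had an unadjusted p under 0.05.

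**Figure D1:**
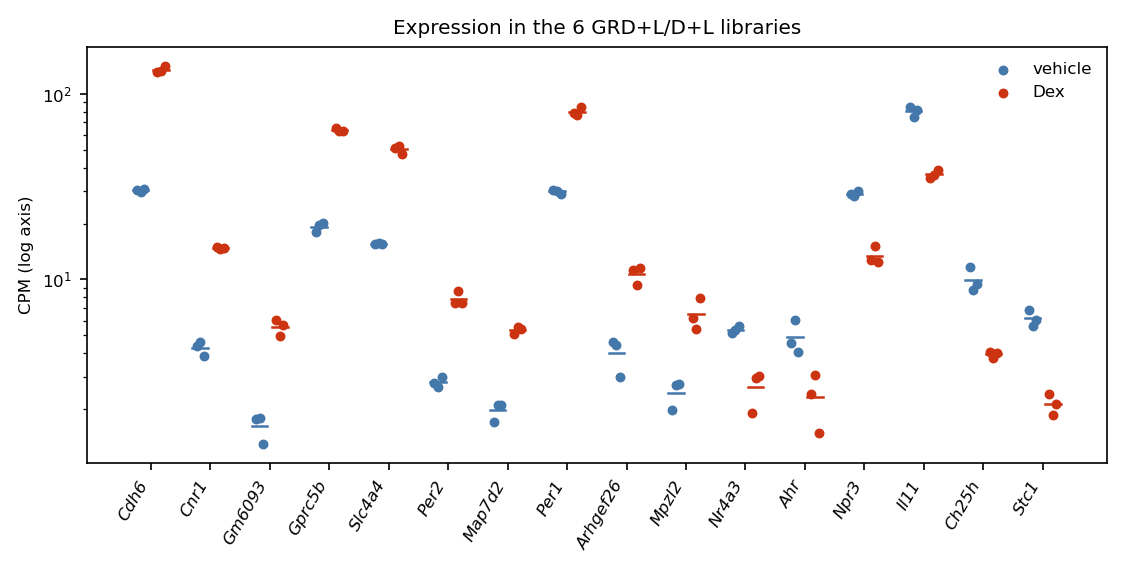
CPM on a log axis of the 16 genes called in GRD+L/D+L that averaged 50 counts or more and did not overlap (the 10 raised most and all 6 lowered), in each of the 3 vehicle and 3 Dex libraries (points) with the mean (line). Cdh6 separates most among the raised genes, from about 30 CPM to between 131 and 141 CPM, and Stc1 among the lowered ones.

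Cdh6, a type II cadherin of cell adhesion, had the largest change among well-covered raised genes. It read 30.2, 29.7 and 30.7 CPM with vehicle and 131, 132 and 141 CPM with Dex. Every Dex library was thus far above every vehicle library, and the log2 fold change was 2.16 ± 0.15 (SE, n = 3 against 3, adjusted p = 4.87e-12 in edgeR's test).

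The period genes of the circadian clock, both long known as glucocorticoid targets, followed. Per1 read 30.4, 30.1 and 28.9 CPM with vehicle and 78.5, 76.6 and 84.3 CPM with Dex, a log2 fold change of 1.42 ± 0.10 (SE). Per2 was lower, at 2.76, 2.62 and 2.99 CPM with vehicle and 7.45, 8.68 and 7.5 CPM with Dex (1.5 ± 0.18, SE). Neither gene's groups overlapped, and both passed (edgeR adjusted p = 4.87e-12 and 1.94e-07). Of the 18 clock genes tested, 3 rose and 1 fell. Cry1, a repressor in the clock loop, rose by a log2 fold change of 0.39, and Nr1d1, which encodes the nuclear receptor REV-ERB alpha, fell by 0.42 on the log2 scale.

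After Cdh6, the well-covered genes with the largest rise were Cnr1, Gm6093, Gprc5b and Slc4a4. Slc4a4, a sodium bicarbonate cotransporter, read 15.5, 15.6 and 15.4 CPM with vehicle and 51.1, 52.6 and 47.2 CPM with Dex (log2 fold change 1.70 ± 0.13, SE). Gprc5b, an orphan G protein coupled receptor, read 18.0, 19.6 and 20.1 CPM with vehicle and 65.0, 63.0 and 63.1 CPM with Dex (1.73 ± 0.14, SE). Cnr1, the cannabinoid receptor first found in brain, read 4.40, 4.61 and 3.88 CPM with vehicle and 14.9, 14.6 and 14.8 CPM with Dex (1.78 ± 0.24, SE). The treatments were fully separated for Slc4a4, Gprc5b and Cnr1. Arhgef26, a guanine nucleotide exchange factor, rose by 1.42, and Mpzl2, an adhesion protein of epithelia, by 1.40. Mpzl2 also had a log2 fold change of 1.73 in GRko/ko, where it did not pass. Gm6093, a gene model without an assigned function, rose by 1.78 and Map7d2, a microtubule-associated protein, by 1.44. Other raised genes included Ankrd44 (1.12), Lfng (1.19), a glycosyltransferase that modifies Notch, Hr (1.02), a transcriptional corepressor, and Smpd3 (1.23), a neutral sphingomyelinase. The largest fold changes were seen in Fcrlb, Tigd4, Chst13, Alox12, Cd33, Wfdc1, Gm8806 and Rgcc, all with mean counts under 50.

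The lowered genes included secreted and inflammatory factors. Il11, a cytokine of the interleukin-6 family, read 84.9, 74.7 and 81.6 CPM with vehicle and 35.3, 36.6 and 39.0 CPM with Dex, a log2 fold change of -1.12 ± 0.09 (SE, adjusted p = 1.01e-10 in edgeR's test). Ch25h, which makes 25-hydroxycholesterol, read 11.6, 8.76 and 9.46 CPM with vehicle and 4.08, 3.77 and 4.01 CPM with Dex (-1.33 ± 0.15, SE). Stc1, a secreted glycoprotein hormone, read 6.83, 5.63 and 6.05 CPM with vehicle and 2.42, 1.85 and 2.13 CPM with Dex (-1.53 ± 0.37, SE). For these genes the lowest vehicle library stayed above the highest Dex library, but Stc1 no longer passed without Dex replicate 2 (edgeR adjusted p = 0.0531). Npr3, the clearance receptor for natriuretic peptides, fell by 1.11 on the log2 scale, Ahr, the aryl hydrocarbon receptor, fell by 1.07, and Nr4a3, an orphan nuclear receptor of the immediate early class, fell by 1.02. Has1, a hyaluronan synthase, fell by 1.80 on the log2 scale, Rspo2, an activator of Wnt signalling, by 1.36, and Ptgir, the prostacyclin receptor, by 1.33, each with a mean count under 50.

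Read by function, the lists held 476 tested genes, of which 64 passed in GRD+L/D+L (13.4%), 28 rising and 36 falling. Over all genes tested 4% passed, 2.56% rising and 1.45% falling. The lists were compiled with results of these data known, so a higher share in them is not independent evidence. Of 28 inflammatory cytokines, chemokines and mediators tested, 6 fell, none rose, and 22 did not pass, with a median log2 fold change of -0.11 against -0.00027 for all genes. Besides Il11 and Ch25h they were Il6, Lif, Vcam1 and Icam1. Il6 read 10.3, 11.8 and 11.3 CPM with vehicle and 5.99, 6.32 and 5.88 CPM with Dex. Vcam1, an endothelial and stromal adhesion molecule, read 86.0, 89.9 and 84.6 CPM with vehicle and 59.9, 64.0 and 64.9 CPM with Dex. Both fell without overlap, by 0.88 and 0.46 on the log2 scale. Ccl2, a monocyte chemokine, did not pass (log2 fold change -0.36, edgeR adjusted p = 0.513). Among 18 prostaglandin genes 3 fell, with Ptgs2, the inducible cyclooxygenase, going from 1332, 1299 and 1340 CPM with vehicle to 896, 889 and 932 CPM with Dex. Ptger4, a receptor for prostaglandin E2, and Ptgir were the others. With the separate terms 4 of the 18 fell and 1 rose. Nfkbiz, an atypical inhibitor of NF-kB, was the 1 of 16 NF-kB genes that passed, and it fell by 0.56 on the log2 scale. Of 23 AP-1 and immediate early genes 4 fell and none rose, while with the separate terms 6 fell and 1 rose. Nr4a1 fell by 0.63 on the log2 scale and Ier3 by 0.40.

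**Figure D2:**
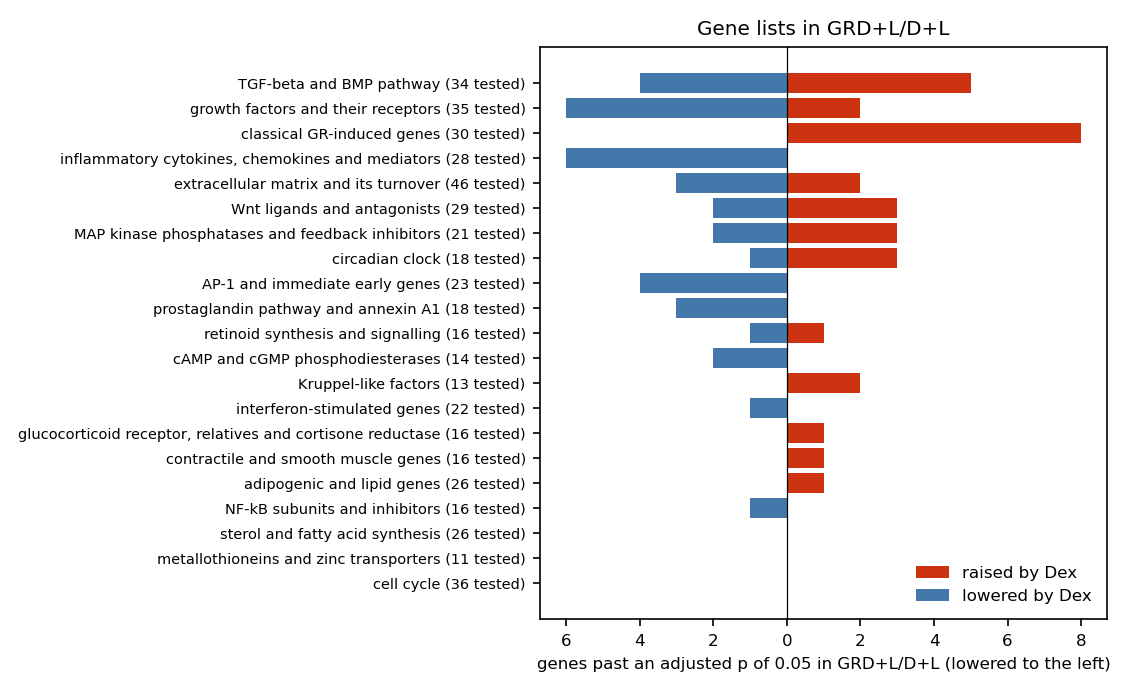
Number of genes of each list past an adjusted p of 0.05 in GRD+L/D+L, raised to the right and lowered to the left, with the number tested in parentheses. The classical GR-induced list has 8 raised and none lowered, and the inflammatory list has 6 lowered and none raised.

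Of 30 classical GR-induced genes, 8 rose, none fell and 22 did not pass, with a median log2 fold change of 0.36. In the model with a separate term for each genotype, run and treatment, 12 rose and 1 fell. The list was compiled with results of these data known, so its direction is not independent evidence. Fkbp5, a co-chaperone that lowers hormone binding by GR, read 49.8, 47.0 and 47.6 CPM with vehicle and 96.9, 96.0 and 94.5 CPM with Dex (0.99 ± 0.16, SE, adjusted p = 5.65e-05 in edgeR's test). Sgk1, a kinase controlling ion transport, whose promoter palindrome is shown above, read 92.9, 92.3 and 97.0 CPM with vehicle and 124, 125 and 128 CPM with Dex (0.42 ± 0.06, SE). Both were raised in every Dex library. Errfi1, an inhibitor of EGF receptor signalling, rose by 0.60, Irs2, an insulin receptor adaptor, by 0.61, Arl4d by 0.91 and Klf9 by 0.42. Tsc22d3, which encodes GILZ, an anti-inflammatory leucine zipper protein, read 23.4, 22.5 and 20.3 CPM with vehicle and 30.2, 29.5 and 32.4 CPM with Dex. Its libraries were separated, yet the log2 fold change of 0.47 did not pass (edgeR adjusted p = 0.430), while the model with separate terms gave an adjusted p of 5.49e-05. Mt2, a metallothionein, behaved likewise, with a log2 fold change of 0.44 and edgeR adjusted p of 0.143 and 0.00134. Dusp1, a phosphatase that switches off MAP kinases, read 46.1, 49.1 and 44.1 CPM with vehicle and 33.6, 37.9 and 41.1 CPM with Dex, with a log2 fold change of -0.31 and edgeR adjusted p of 0.327 and 0.00110. Pdk4, a kinase that limits pyruvate oxidation, stood at 0.09 and did not pass.

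Signalling by TGF-beta and BMP was touched in both directions, with 5 of 34 genes rising and 4 falling. Tgfbr1, the type I receptor for TGF-beta, read 35.8, 36.4 and 39.7 CPM with vehicle and 85.9, 85.7 and 90.9 CPM with Dex. Inhbb, the beta B subunit of activins and inhibins, read 41.1, 43.1 and 35.3 CPM with vehicle and 94.0, 96.7 and 86.9 CPM with Dex. Both passed with every Dex library above every vehicle library, with log2 fold changes of 1.23 ± 0.09 and 1.21 ± 0.11 (SE). The ligand gene Tgfb2 rose by 0.57, the co-receptor gene Tgfbr3 by 0.66 and Fst, an activin antagonist, by 0.84. Inhba, the beta A subunit of activins, fell by 0.40 on the log2 scale, from 1843, 1923 and 1906 CPM to 1426, 1425 and 1438 CPM, and Grem1, a BMP antagonist, fell by 0.42. Of 35 growth factors and receptors, 2 rose and 6 fell. Hgf fell by 0.70, Nrg1 by 0.67, Fgf7 by 0.49 and Egfr by 0.38 on the log2 scale. Fgf2 rose by 0.30 and Vegfc by 0.52. In the matrix list (46 tested) 2 rose and 3 fell, among them Col11a1, a fibrillar collagen (0.81), Timp3, an inhibitor of metalloproteinases (-0.34), and Has2 (-0.53), which no longer passed with DESeq2 or when any 1 of the 6 libraries was left out. In the Wnt list (29 tested) 3 rose and 2 fell, with Wnt5a at 0.31 and Wnt4 at -0.64.

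Fewer genes passed in the remaining lists, and with 4% of all genes passing (2.56% raised, 1.45% lowered) a single gene of a list is near the background share. MAP kinase phosphatases and feedback inhibitors had 3 raised and 2 lowered of 21, or 3 and 5 with the separate terms. Kruppel-like factors had 2 raised of 13, 1 of them Klf6 (0.48). Phosphodiesterases had 2 lowered of 14, Pde4b (-0.88) and Pde8b (-0.52). Retinoid genes had 1 of each among 16, Dhrs3 (0.65) and Aldh1a3 (-0.97). Contractile genes had 1 raised of 16, adipogenic genes 1 raised of 26 (Fabp4, 0.50), the list of GR and its relatives 1 raised of 16, and interferon-stimulated genes 1 lowered of 22. None of 36 cell cycle genes, 26 sterol and fatty acid genes or 11 metallothionein and zinc genes passed in edgeR's test, although 6, 4 and 2 of them had an unadjusted p under 0.05. With the separate terms 1, 1 and 2 of them passed.

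Nr3c1 itself read 98.9, 98.9 and 93.6 CPM with vehicle and 89.9, 86.8 and 88.3 CPM with Dex in GRD+L/D+L. The Dex libraries were the lower ones, but the log2 fold change of -0.14 ± 0.06 (SE) did not pass (adjusted p = 0.319 in edgeR's test). Its level in GRwt/wt of run 1 fell by 0.52 on the log2 scale, and the difference of 0.39 ± 0.09 (SE) passed (edgeR adjusted p = 0.00642, and 0.0109 without vehicle replicate 2).

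How much of the residual response GRwt/wt shared was read from the calls. These set unlike models side by side. The other groups were called by the model with separate terms. GRD+L/D+L was called by the model that passed 620 of its genes, where the separate terms passed 774. Of the 60 genes, 29 were also called in GRwt/wt of run 1, all in the same direction. That is 48.3% of the GRD+L/D+L list and 9.32% of the 311 genes called in GRwt/wt, itself 2.01% of genes tested (1.28% raised and 0.73% lowered). Without vehicle replicate 2 of GRwt/wt the shared number was 35. At the adjusted p alone 39 of the 60 passed in GRwt/wt in the same direction, with and without that library, and none in the opposite one, where 13.9% of all genes passed. These were 26 raised and 13 lowered genes, against 7.74% and 6.2% of all genes in those directions. In GRD/D 32 of the 60 were called, which is 53.3% of the 60 and 21.1% of 152 genes (0.981% of those tested, 0.639% raised and 0.342% lowered), and 41 passed the adjusted p in the same direction, where 11.9% of all genes passed. Of these 29 rose and 12 fell, against 5.63% and 6.24% of all genes. In GRwt/wt of run 2, 41 of the 60 passed in the same direction and 2 in the opposite one, where 31.6% of all genes passed. In GRL/L the numbers were 34 and 2, where 19.1% of all genes passed. The 2 opposite genes were Npr3 and Rgs4 in both groups, with log2 fold changes for Npr3 of 0.27 and 0.54.

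**Figure D3:**
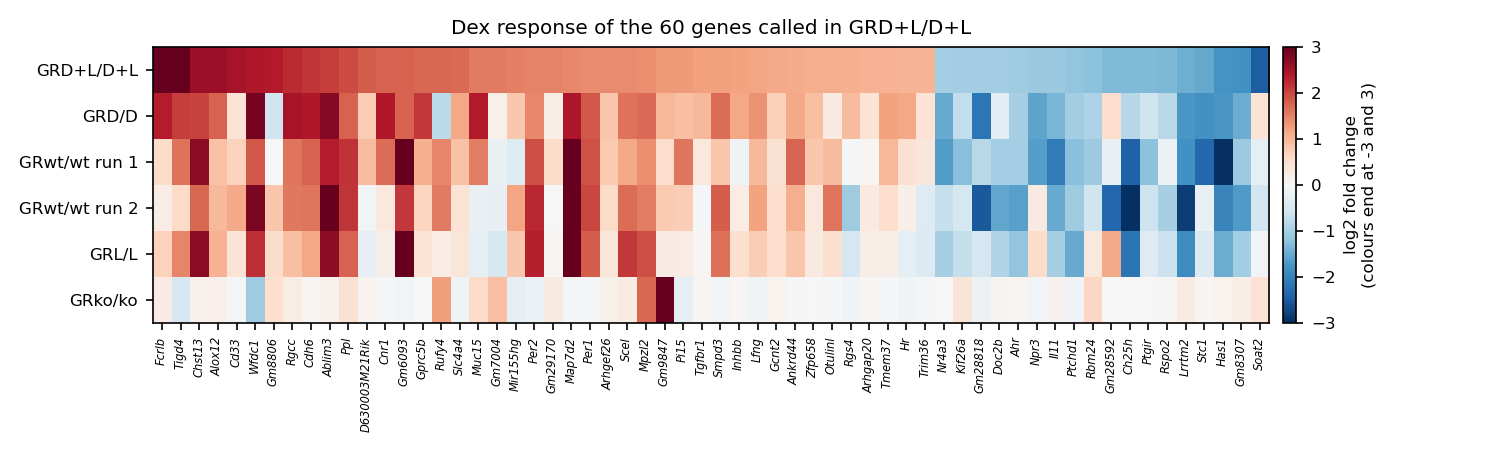
log2 fold change by Dex in each genotype for the 60 genes called in GRD+L/D+L, ordered by their value there, with colours ending at -3 and 3. The values in GRD/D have the sign of those in GRD+L/D+L for 56 of the 60 genes, and so do those in GRwt/wt of run 1. The number is 53 in GRwt/wt of run 2, 51 in GRL/L and 28 in GRko/ko.

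The test of the difference in response between GRD+L/D+L and GRwt/wt of run 1 passed for 501 genes (3.23%), with the change higher in GRD+L/D+L for 1.26% and lower for 1.98% of genes tested, and for 482 without vehicle replicate 2, with 433 in common. Among the 198 genes called as raised in GRwt/wt, 97 differed and 96 of these changed less in GRD+L/D+L. Among the 113 called as lowered, 27 differed and all 27 changed less. Both sets were chosen for a large change in the same GRwt/wt libraries, which favours a smaller change in GRD+L/D+L in advance. In GRD+L/D+L 46 of the 198 and 36 of the 113 still passed the adjusted p in the same direction. These passes are by the model behind the 620 genes, which passed fewer genes in GRD+L/D+L than the separate terms used for GRwt/wt. Without vehicle replicate 2, 97 of 209 raised and 34 of 103 lowered genes differed, and 58 and 38 still passed in GRD+L/D+L.

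Among genes called in GRwt/wt, those with the smallest adjusted p for a smaller change in GRD+L/D+L included metallothioneins and Suox, the mitochondrial sulfite oxidase. Suox read 21.6, 20.1 and 21.9 CPM with vehicle and 22.2, 23.7 and 21.8 CPM with Dex in GRD+L/D+L. In GRwt/wt of run 1 it went from 17.2, 19.9 and 19.3 CPM to 76.5, 77.0 and 72.3 CPM. The groups overlapped in the mutant and were far apart in the wild type, and the difference in log2 fold change was -1.91 ± 0.09 (SE, edgeR adjusted p = 2.04e-17). Mt2 differed by -2.81 ± 0.13 and Mt1, its neighbour, by -1.70 ± 0.10 (SE). Mt2 read 58.7, 63.2 and 64.0 CPM with vehicle and 79.2, 85.4 and 87.9 CPM with Dex in GRD+L/D+L, and 466 to 507 CPM with Dex in GRwt/wt. Fkbp5 differed by -1.58 ± 0.10 and Adamts1, a secreted metalloprotease, by -1.27 ± 0.08 (SE), although both still rose in GRD+L/D+L. Without vehicle replicate 2 the 5 differences ran from -1.28 for Adamts1 to -2.87 for Mt2, and all passed. Of the other genes shown above for their palindrome, which were chosen for differing, Sgk1 differed by -0.95 (-1.07 without vehicle replicate 2), Map7d2 by -2.0 (-2.39) and Gm6093 by -1.49 (-1.54). Scel (0.27) and Tmem37 (0.05), shown for the AP-1 letters, did not pass the test of the difference. Lowered genes lost size as well, and the drop of Il11 was smaller by 0.99 ± 0.12 and that of Il6 by 1.37 ± 0.23 (SE), or by 1.08 and 1.41 without vehicle replicate 2.

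A smaller set went the other way. Of the 620 genes, 47 changed more in GRD+L/D+L than in GRwt/wt of run 1, 41 of them raised and 6 lowered. Without vehicle replicate 2 there were 35, of which 32 were among the 47. Of the 47, 36 passed in GRD/D in the same direction, where 5.63% of all genes passed as raised and 6.24% as lowered. In GRwt/wt 9 passed in the same direction and 2 in the opposite one, with 7.74% and 6.2% of all genes passing as raised and lowered, and none passed in GRko/ko. Without vehicle replicate 2, 25 of the 35 passed in GRD/D, and 6 and 2 in GRwt/wt. The genes were chosen for a larger change than in GRwt/wt of run 1, which limits in advance how many pass there. Of the 47, 10 passed in the same direction in GRwt/wt of run 2, where 14.9% of all genes passed as raised and 16.7% as lowered. In GRL/L 11 did, where 8.79% passed as raised and 10.4% as lowered. Others passed in the opposite direction. Among these, raised in GRD+L/D+L, were Adgre5 (log2 fold change -0.39), Cplx2 (-0.43) and Rgs4 (-1.07) in GRwt/wt of run 2. Arc (-0.59) and Fam78b (-0.42) did so in GRL/L. With GRwt/wt of run 2 in place of run 1 the difference kept its sign and passed for 40 of the 47, where 14.4% of all genes passed. Both differences use the same 6 GRD+L/D+L libraries on which the 47 were chosen, so this count is a description and not an independent check.

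Inhbb, Rgs4 and Tgfbr1 had the smallest adjusted p of difference among the called genes of this kind. In GRwt/wt of run 1 Inhbb read 88.9, 116 and 93.3 CPM with vehicle and 84.8, 95.0 and 99.1 CPM with Dex. The 3 Dex values of GRD+L/D+L, 86.9 to 96.7 CPM, thus lay within the range of GRwt/wt, and its vehicle values, 35.3 to 43.1 CPM, lay under it. The difference in log2 fold change was 1.31 ± 0.14 (SE, edgeR adjusted p = 1.20e-08), and 1.19 without vehicle replicate 2. Rgs4, which shortens G protein signalling, read 43.2, 46.0 and 44.8 CPM with vehicle and 98.1, 89.5 and 92.8 CPM with Dex in GRD+L/D+L. In GRwt/wt it read 54.7, 65.8 and 58.8 CPM and 65.3, 53.0 and 54.6 CPM, so that here the treatments overlapped. The difference was 1.11 ± 0.10 (SE, edgeR adjusted p = 1.19e-10), and 1.04 without that library. In run 2 Rgs4 had a log2 fold change of -1.07 in GRwt/wt and -0.51 in GRL/L, against 0.96 in GRD/D. Tgfbr1 read 45.7, 63.6 and 47.1 CPM with vehicle and 65.4, 62.0 and 66.2 CPM with Dex in GRwt/wt, and its difference of 0.92 ± 0.12 (SE) became 0.76 without vehicle replicate 2. Both values passed.

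**Figure D4:**
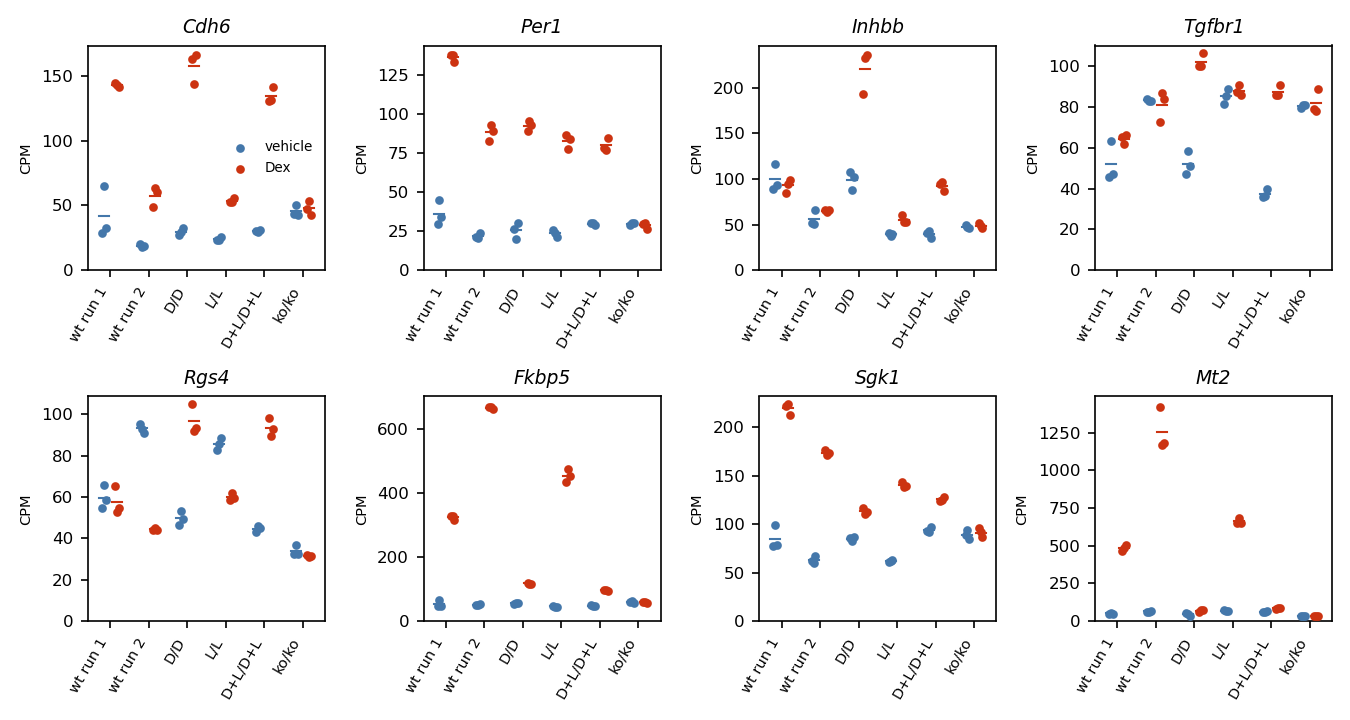
CPM (linear axes from 0) of 8 genes in every library, by genotype and run, for vehicle and Dex, with the mean as a line. Inhbb, Tgfbr1 and Rgs4 separate between treatments in GRD/D and GRD+L/D+L, Mt2 stays low in both, and vehicle replicate 2 of GRwt/wt run 1 lies above its group for Cdh6 and Tgfbr1.

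Gcnt2, an enzyme that branches glycans, differed by 0.67 (0.63 without vehicle replicate 2) and Slc4a4 by 0.81 (0.53). Both passed either way. Gprc5b, Cd33 and Mir155hg passed with the library and not without it, and the difference for Gprc5b went from 0.66 to 0.24 (edgeR adjusted p = 0.0352 and 0.290). It also failed to pass when any 1 of the 6 GRD+L/D+L libraries was left out. For Cdh6 the difference was 0.39 with it and -0.06 without it, and neither passed. Vdr, the vitamin D receptor, read 6.56, 5.76 and 4.42 CPM with vehicle and 10.7, 9.96 and 11.5 CPM with Dex in GRD+L/D+L, against a log2 fold change of 0.07 in GRwt/wt. Arc, an immediate early gene, rose by 0.88 against 0.02, and Flt1, a receptor for VEGF, by 0.78 against 0.15. The differences of Vdr, Arc and Flt1 passed with and without the library.

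**Figure D5:**
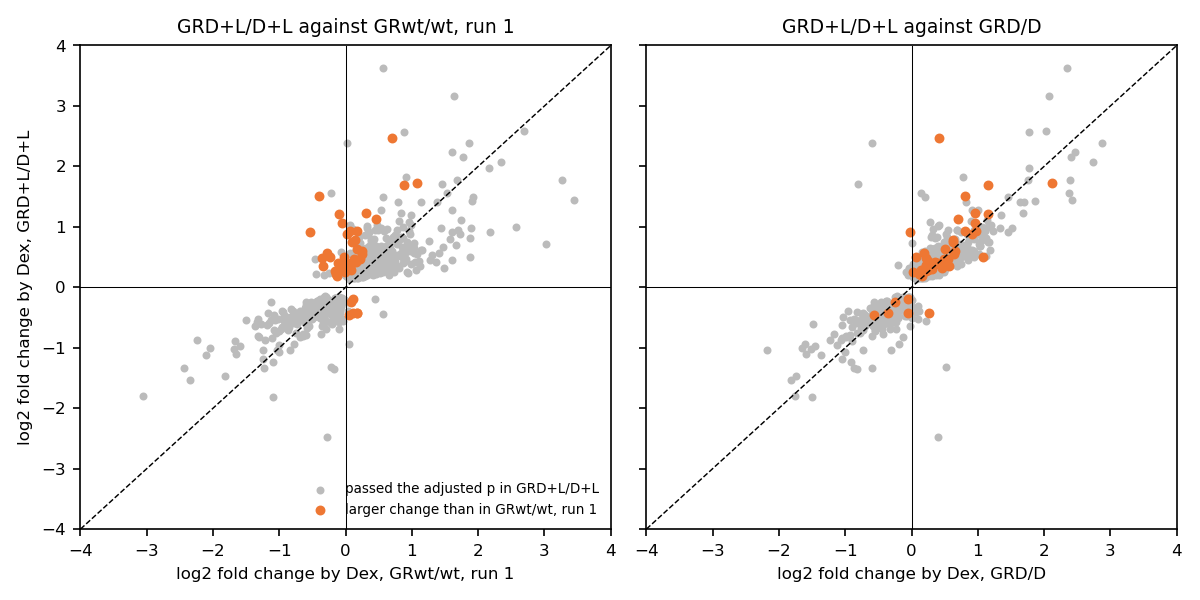
log2 fold change by Dex in GRD+L/D+L against that in GRwt/wt of run 1 (left) and GRD/D (right) for the 620 genes past the adjusted p, with the 47 genes that changed more than in GRwt/wt in orange and the line of equal change dashed. Of the 47 orange points, 36 also passed in GRD/D in the same direction, 11 in GRL/L and 10 in GRwt/wt of run 2. Some others passed in the opposite direction in GRL/L and in GRwt/wt of run 2. In GRwt/wt of run 1 it was 9, a number limited in advance by how the 47 were chosen.

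Against GRD/D the response differed for 12 genes (0.0775%; 0.0581% higher and 0.0194% lower in GRD+L/D+L), none of them among the 60 called in GRD+L/D+L. Fgf7, a fibroblast growth factor acting on epithelia, fell by 0.49 on the log2 scale in GRD+L/D+L and by 1.03 in GRD/D, a difference of 0.54 ± 0.11 (SE, edgeR adjusted p = 0.0384). Inhba fell by 0.40 against 0.82, and Ugdh, which makes UDP-glucuronate, rose by 0.50 against 1.07. The number was 0 when any 1 of the 6 GRD+L/D+L libraries was left out, so these calls did not hold without each library. With an unadjusted p under 0.05 there were 1600 genes (10.3%), and DESeq2 called 58. A missing difference at this size does not show that the genotypes responded alike.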

How the data were processed

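Raw read counts per gene, as deposited by the authors, were used for all 36 libraries. Per the labels and the methods, the authors prepared TruSeq libraries from total RNA, mapped reads to mm10 with HISAT2 2.1.0, kept unique alignments and counted with featureCounts 2.0.0. The annotation and strand setting were not given in the sources used here, so reads of overlapping or near-identical genes cannot be told apart.

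Libraries were grouped by genotype, treatment and run from the labels. Genes were filtered with filterByExpr, library sizes scaled by TMM and edgeR 4.0.16 quasi-likelihood tests run in R 4.3.3, with Benjamini-Hochberg adjustment over 15489 genes. The GRD+L/D+L response came from a model with 10 genotype and treatment terms plus run, fitted to all 36 libraries. Responses of the other groups and differences between genotypes came from a model with 12 genotype, run and treatment terms. Values are CPM after TMM scaling. Total counts were 15280166 to 28662608 and the biological coefficient of variation 0.0564. Checked on simulated counts for the GRD+L/D+L response over 14911 genes, 78 of 100 genes changed by a log2 value of 1 and 94 of 100 changed by 2 were recovered. Symbols were matched for 55141 of 55487 identifiers.

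The members, gene lists and tests were chosen with earlier results of these data known. Named genes were Nr3c1 and 3 genes measured by qPCR in the study, the well-covered genes (mean count of at least 50, no overlap) changed most, the genes with the smallest adjusted p, those differing most from GRwt/wt, and list members with the smallest adjusted p. Other genes, such as Vdr, Arc, Flt1, Ugdh, Ccl2 and further list members, were picked after their values were seen. Replicates were cultures from different mice, as the study states. Between GRD+L/D+L replicates of a treatment, the median chi-square relative to counting noise was 1.39 to 1.70. In all 6 libraries the Y-linked gene Ddx3y read 80.7 to 96.5 CPM and Xist at most 0.591. How much variation between animals the replicate libraries hold was not tested, nor whether the SEs measure the spread between mice. Vehicle and Dex libraries of 1 number were not treated as pairs in the main model, and the labels do not say whether they share a culture. In GRD+L/D+L their deviations correlated by 0.010 to 0.022, against -0.022 to 0.0021 for libraries of unlike number. These small values do not decide the pairing. Alternatives were DESeq2 1.42.0, DESeq2 size factors, other filters, other sets of libraries, a replicate block and leaving out single libraries.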

Additional observations from a re-analysis of the deposited data

Results flagged for a closer look

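The difference in Dex response between GRD+L/D+L and GRwt/wt of run 1, tested as an interaction, passed for 501 genes, and 47 of the genes that responded in GRD+L/D+L had the larger change there. Among genes called in GRwt/wt, the 5 with the smallest adjusted p for a smaller change in GRD+L/D+L were Mt2 (difference in log2 fold change -2.81), Suox (-1.91), Mt1 (-1.70), Fkbp5 (-1.58) and Adamts1 (-1.27). Among genes called in GRD+L/D+L, the 5 for a larger change were Inhbb (1.31), Rgs4 (1.11), Tgfbr1 (0.92), Slc4a4 (0.81) and Gcnt2 (0.67). Against GRD/D the interaction passed for 12 genes.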

How the results depend on the processing

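Of the values for single named genes under the alternatives, 827 kept direction and side of the threshold, 33 lost the call, 16 gained it and 1 changed sign. That was the Cdh6 difference from GRwt/wt, -0.059 without vehicle replicate 2 of GRwt/wt run 1, whose range over single libraries left out reached 0.61. At the adjusted p alone the called genes numbered 620 (396 raised, 224 lowered). With at least 10 counts in every library 28 genes were called (20 raised, 8 lowered), and 14 were shared with GRwt/wt in place of 29. List genes past the adjusted p numbered 64, and 102 with no filter, 98 with only run 1 and 159 with only the 6 GRD+L/D+L libraries, where 1507 genes passed in all. The difference from GRwt/wt passed for 1227 genes against both runs and 2228 against run 2, in place of 501, and 119 and 152 genes changed more in GRD+L/D+L, in place of 47. The run 2 values were alternatives chosen after seeing the data, as was leaving out single GRwt/wt libraries for the shared and larger changes. The 12 differences from GRD/D became 0 with DESeq2 size factors or without GRko/ko, 2 with only run 1, 87 with no filter and 58 with DESeq2. The longer palindrome was in 0 promoters of raised genes, in place of 1. The causes of these moves were not tested.

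With a replicate block the GRD/D differences numbered 2, the called genes 57 and the genes past the adjusted p 500. The labels do not say whether the replicate numbers pair the samples. Stc1, Has2 and the Gprc5b difference missed the threshold under the block. Has2 also missed it with DESeq2, and Has2 and the Gprc5b difference without any 1 GRD+L/D+L library, Stc1 only without Dex replicate 2 among these. Leaving out single GRD+L/D+L libraries gave 52 to 61 called genes (38 to 44 raised, 13 to 17 lowered), 426 to 490 past the adjusted p and 53 to 58 list genes. It gave 413 to 426 differences from GRwt/wt, 31 to 37 larger changes, 25 to 30 shared calls and 0 differences from GRD/D. Leaving out single libraries of the other genotype gave 414 to 482, 35 to 49, 24 to 35 and 0 to 21. Depth limits the 33 called genes with a mean count under 50.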
